A study of Mus musculus with 18 samples.

Results

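Arid5a, Tfcp2l1, Foxp2, Elmsan1, L3mbtl3 and Creb3l2 are less studied members of a list of transcription factors that the study gives as raised by axon injury in cultured embryonic sensory neurons. They are 6 of the 29 factors on that list and 6 of the 47643 genes in the count tables. All 6 passed the filter on low counts, as did 13771 genes in all. The study listed Arid5a at 8 and 16 hours post injury (HPI), Elmsan1 at 8 HPI and the other 4 at 16 HPI, so that the members were chosen by a level above that of control in these same libraries. Their levels against control are therefore given as a description, without a test. Tests were made only between injured time points at which the member in question was not listed.

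The cultures were spots of dorsal root ganglia from e13.5 CD-1 mice, grown with nerve growth factor and with FDU, a mitotic inhibitor that removes dividing cells. Control spots were uninjured and collected at DIV7 (7 days in vitro). In every other group the axons were cut with a blade. RNA of these groups was taken at 1, 3, 8, 16 and 24 HPI, with 3 replicates per group and 18 libraries in all, and no genetic change in any group. The cut was made in culture on neurons at an embryonic stage, away from target tissue and with dividing cells removed, which limits the groups as a model of nerve injury. By the labels the injured spots may have passed DIV7 at collection, so that time in culture and time after injury cannot be told apart. The replicates were not said to come from separate litters, so p-values measure the spread between these samples, which may be technical. Libraries held 9478891 to 23082327 counts on genes, and 3 counts in a library correspond to between 0.131 and 0.319 CPM, counts scaled to a library of 1000000 counts after adjustment of the library size by its TMM factor.

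The 6 factors belong to different families and act in different ways. Arid5a, of the AT-rich interaction domain family, binds RNA as well as DNA and is known for stabilising the mRNA of interleukin-6. Tfcp2l1 is a CP2 family activator of the naive pluripotency network and of epithelial duct cells. Foxp2 is a forkhead repressor known for its role in neuronal circuits of vocal learning. Elmsan1, named Mideas in RefSeq, is the scaffold of the mitotic deacetylase complex, in which it holds the histone deacetylases Hdac1 or Hdac2 with Dnttip1. L3mbtl3 reads methylated lysines through its MBT repeats and binds Rbpj, the nuclear effector of Notch, together with the demethylase Kdm1a. Creb3l2 is a bZIP activator anchored in the endoplasmic reticulum membrane, which the proteases Mbtps1 and Mbtps2 release by cleavage and which raises genes of COPII vesicle transport such as Sec23a.

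All 6 genes are protein coding in GENCODE vM21 on GRCm38, the assembly of the mm10 build that the study used. Arid5a (ENSMUSG00000037447.16) lies at chr1:36307733-36324029 on the plus strand, and Tfcp2l1 (ENSMUSG00000026380.10) at chr1:118627945-118685168 on the plus strand. Foxp2 (ENSMUSG00000029563.16) spans chr6:14901349-15441977 on the plus strand, and Creb3l2 (ENSMUSG00000038648.5) chr6:37327255-37442146 on the minus strand. Elmsan1 (ENSMUSG00000042507.14) lies at chr12:84149176-84218881 and L3mbtl3 (ENSMUSG00000039089.14) at chr10:26274468-26375971, each on the minus strand. Of the annotated neighbours, only the small nuclear RNA gene Gm23497 shared exon bases with a member on either strand, 130 bases with Tfcp2l1 on the same strand.

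RefSeq promoters of GRCm38.p6, from 250 bases before to 50 bases after a transcript start, were at hand for Arid5a, Tfcp2l1, Elmsan1, L3mbtl3 and Creb3l2, 7 promoters in all, with 2 each for Elmsan1 and L3mbtl3. The promoters of Arid5a and Elmsan1 are shown because these were the 2 members that were high at 8 HPI and had the most alike courses. Capitals mark the motif matches. They are the promoter of Arid5a at chr1:36307483-36307782 on the plus strand, and those of Elmsan1 at chr12:84218832-84219131 and chr12:84193966-84194265 on the minus strand, each printed in the direction of transcription.
Arid5a promoter: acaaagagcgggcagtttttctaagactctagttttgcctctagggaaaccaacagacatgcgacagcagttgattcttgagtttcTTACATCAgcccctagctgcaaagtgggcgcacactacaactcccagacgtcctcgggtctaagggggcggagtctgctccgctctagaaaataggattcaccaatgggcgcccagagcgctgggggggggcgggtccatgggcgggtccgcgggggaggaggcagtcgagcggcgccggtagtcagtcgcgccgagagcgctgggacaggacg
Elmsan1 promoter 1: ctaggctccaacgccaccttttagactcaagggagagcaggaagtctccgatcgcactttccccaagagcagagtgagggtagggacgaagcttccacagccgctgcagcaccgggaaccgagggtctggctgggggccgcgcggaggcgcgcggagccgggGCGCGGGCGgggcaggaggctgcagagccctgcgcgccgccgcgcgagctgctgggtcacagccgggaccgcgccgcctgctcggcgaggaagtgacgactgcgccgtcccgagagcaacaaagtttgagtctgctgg
Elmsan1 promoter 2: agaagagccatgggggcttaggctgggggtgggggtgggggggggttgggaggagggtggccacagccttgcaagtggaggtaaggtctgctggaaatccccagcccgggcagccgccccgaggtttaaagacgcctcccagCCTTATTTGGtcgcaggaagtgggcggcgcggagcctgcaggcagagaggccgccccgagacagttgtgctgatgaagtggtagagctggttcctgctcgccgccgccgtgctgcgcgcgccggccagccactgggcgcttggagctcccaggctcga

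The Arid5a promoter held a C/EBP-ATF composite (TGATGNAA, read here on the opposite strand as TTACATCA) at bases -164 to -157 from the start, a motif found in 3.97% of all 32851 promoters. Elmsan1 promoter 1 held an EGR motif (GCGNGGGCG) at -88 to -80, found in 5.55% of promoters, and Elmsan1 promoter 2 an SRF CArG box at -108 to -99, found in 1.63%. No motif was shared between the Arid5a promoter and either Elmsan1 promoter. L3mbtl3 promoter 1 (chr10:26375170-26375469) held an EGR match at -239 to -231, and its promoter 2 (chr10:26374023-26374322) a forkhead match (TGTTTAC) at -229 to -223, found in 3.65% of promoters. The promoters of Tfcp2l1 (chr1:118627695-118627994) and Creb3l2 (chr6:37442099-37442398) held no match to any of the motifs searched. These were also searched on both strands: AP-1 (TGANTCA, in 7.81% of promoters), CRE (TGACGTCA, 1.79%), the unfolded protein response element (TGACGTGG, 0.676%), STAT (TTCNNNGAA, 8.30%) and its stricter form TTCCNGGAA, 1.15%, which lies within it. GC content ran from 59.7% in Creb3l2 to 79.3% in L3mbtl3 promoter 1, against a median of 52.7% over all promoters. The number of CpG pairs ran from 17 to 44, against a median of 7.

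In the uninjured cultures the members other than Elmsan1 were among the less abundant of the genes that passed the filter, and Elmsan1 lay somewhat below the middle. Per kilobase of exon (RPKM, CPM divided by the summed exon length), Elmsan1 stood at 3.38 ± 1.22 in control (SD, n = 3), above 43.7% of the 13728 tested genes with a known length. L3mbtl3 stood at 0.609 ± 0.0487, Tfcp2l1 at 0.462 ± 0.136, Arid5a at 0.461 ± 0.244, Creb3l2 at 0.228 ± 0.072 and Foxp2 at 0.0462 ± 0.0429 RPKM. Foxp2 was above only 0.0874% of those genes. With the longest transcript as the length in place of all exons, the RPKM of Arid5a, Foxp2 and L3mbtl3 moved to 1.05, 0.112 and 1.29, and those of the other 3 by less than the SD. The shares of genes below a member were worked out with the summed exon length only.

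**Figure D1:**
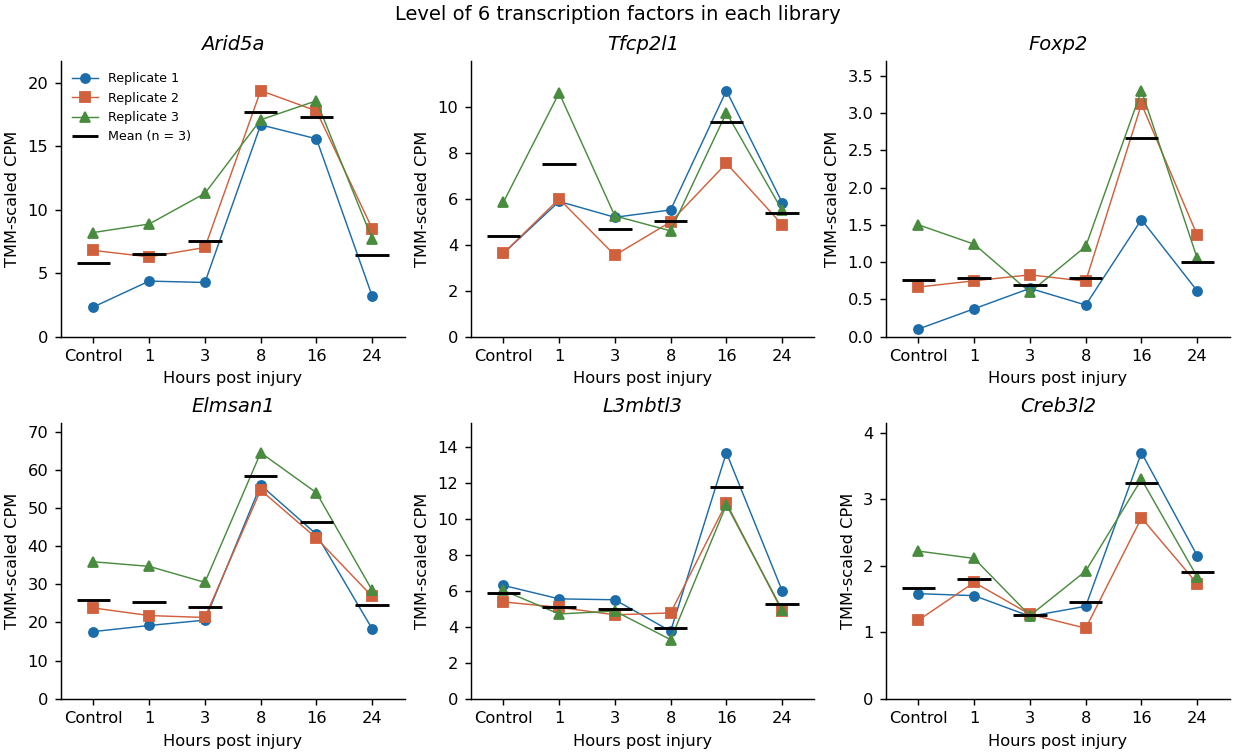
Level of each factor in TMM-scaled CPM (vertical axis, from 0) against time point (horizontal axis), with a point for each library, a line joining the libraries of 1 replicate number and a black bar for the mean of 3. Arid5a and Elmsan1 were high at 8 and 16 HPI, the other 4 were highest at 16 HPI, and all had mean levels at 24 HPI below those at 16 HPI.

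Arid5a was high at 8 and 16 HPI and near its control level before and after. Its level in CPM scaled by TMM factors, the scale of all levels in CPM below, was 2.34, 6.80 and 8.21 in control replicates 1, 2 and 3. At 1 HPI it was 4.38, 6.29 and 8.88, and at 3 HPI 4.27, 7.03 and 11.3. Replicate 1 was the lowest library at each of these time points. At 8 HPI the level was 16.7, 19.4 and 17.1 CPM, at 16 HPI 15.6, 17.8 and 18.6, and at 24 HPI 3.19, 8.52 and 7.69. All 6 libraries of 8 and 16 HPI lay above the other 12, and these 2 time points overlapped each other.

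The fitted log2 fold change of Arid5a against control, from edgeR with a term for the replicate number, was 1.67 ± 0.23 (SE) at 8 HPI and 1.63 ± 0.23 at 16 HPI, or 3.19-fold and 3.09-fold. At 8 HPI the log2 ratio to the control of the same replicate number was 2.78 in replicate 1, 1.50 in replicate 2 and 1.05 in replicate 3. The 3 control libraries differed from each other by more than the 3 libraries of 8 HPI. Without control replicate 1 the value at 8 HPI was 1.41. At 24 HPI the log2 fold change was 0.20 ± 0.25, and at 1 and 3 HPI it was 0.19 ± 0.26 and 0.39 ± 0.25.

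Elmsan1 had the same 2 high time points, with the higher level at 8 HPI. Its control libraries held 17.6, 23.8 and 35.9 CPM, those of 1 HPI 19.2, 21.8 and 34.7, and those of 3 HPI 20.6, 21.3 and 30.5. At 8 HPI the level was 56.0, 54.7 and 64.5 CPM, at 16 HPI 43.1, 42.1 and 54.0, and at 24 HPI 18.3, 26.8 and 28.4. Replicate 3 was the highest library at every time point, and all libraries of 8 and 16 HPI lay above all others. The log2 fold change against control was 1.22 ± 0.12 at 8 HPI, a 2.32-fold difference, and 0.87 ± 0.12 at 16 HPI, where Elmsan1 was not listed and the value lies under 2-fold. At 1, 3 and 24 HPI its values were -0.03 ± 0.12, -0.08 ± 0.12 and -0.04 ± 0.12.

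Tfcp2l1 was highest at 16 HPI and had a smaller early high at 1 HPI. Its control libraries held 3.62, 3.62 and 5.84 CPM and those of 1 HPI 5.88, 5.99 and 10.6. At 3 HPI the level was 5.19, 3.54 and 5.25 CPM and at 8 HPI 5.51, 4.99 and 4.60. At 16 HPI it was 10.7, 7.54 and 9.74 CPM, and at 24 HPI 5.83, 4.87 and 5.49. The ranges of 16 HPI and 1 HPI overlapped, through 1HPI replicate 3, while all libraries of 16 HPI lay above all libraries of control, 3, 8 and 24 HPI. The lowest library of 1 HPI lay 0.05 CPM above the highest of 24 HPI.

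The log2 fold change of Tfcp2l1 against control was 1.09 ± 0.17 at 16 HPI, just inside the 2-fold limit of the study's list. It was 0.93 without control replicate 1 and 0.97 without 16HPI replicate 1. At 1 HPI the log2 fold change was 0.76 ± 0.18, with log2 ratios of 0.69, 0.69 and 0.86 in the 3 replicates. At 3, 8 and 24 HPI it was 0.09 ± 0.19, 0.17 ± 0.20 and 0.31 ± 0.19.

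Foxp2 was the scarcest of the 6 and was high at 16 HPI alone. Its counts were 2, 9 and 31 in control, 7, 15 and 20 at 1 HPI, 12, 19 and 11 at 3 HPI, and 7, 7 and 24 at 8 HPI. At 16 HPI they were 22, 55 and 61, and at 24 HPI 10, 29 and 23. In CPM the control libraries stood at 0.102, 0.665 and 1.50, those of 16 HPI at 1.57, 3.12 and 3.30 and those of 24 HPI at 0.613, 1.36 and 1.05. Every library of 16 HPI lay above every other library, with 16HPI replicate 1 (1.57) next to control replicate 3 (1.50).

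The fitted log2 fold change of Foxp2 at 16 HPI was 1.79 ± 0.32, or 3.46-fold. It rests on few counts, and was 2.72 without control replicate 3 and 1.49 without control replicate 1. In replicate 1 the ratio of 16 HPI to control was 15.4 (95% exact binomial interval 3.78 to 135, counting error only), in replicate 2 it was 4.69 (2.30 to 10.8) and in replicate 3 it was 2.21 (1.41 to 3.52). At 1, 3, 8 and 24 HPI the log2 fold change was 0.02 ± 0.40, -0.12 ± 0.40, 0.10 ± 0.41 and 0.39 ± 0.37.

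L3mbtl3 was the only member whose level at 8 HPI lay below control by more than 0.5 on the log2 scale. Its control libraries held 6.31, 5.39 and 6.03 CPM, those of 1 HPI 5.56, 5.09 and 4.72 and those of 3 HPI 5.51, 4.67 and 4.88. At 8 HPI the level was 3.76, 4.78 and 3.29 CPM, at 16 HPI 13.7, 10.9 and 10.8, and at 24 HPI 6.01, 4.87 and 4.95. The libraries of 8 HPI lay below all those of control and, apart from replicate 2, below all other libraries. All 3 libraries of 16 HPI lay above the other 15. The log2 fold change against control was -0.65 ± 0.13 at 8 HPI and 0.98 ± 0.11 at 16 HPI, the second just outside the 2-fold limit in this fit. Values at 1, 3 and 24 HPI were -0.21 ± 0.12, -0.25 ± 0.12 and -0.18 ± 0.12.

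Creb3l2 was likewise high at 16 HPI alone. Its control libraries held 1.58, 1.18 and 2.22 CPM, those of 1 HPI 1.55, 1.75 and 2.11, those of 3 HPI 1.24, 1.27 and 1.25 and those of 8 HPI 1.39, 1.06 and 1.92. At 16 HPI the level was 3.70, 2.72 and 3.30 CPM and at 24 HPI 2.15, 1.73 and 1.83. All libraries of 16 HPI lay above all others, and the ranges of the other 5 groups overlapped between neighbours in order of level. The log2 fold change at 16 HPI was 0.93 ± 0.19, just outside the 2-fold limit in this fit, and 1.15 without control replicate 3. At 1, 3, 8 and 24 HPI it was 0.10 ± 0.21, -0.41 ± 0.22, -0.17 ± 0.23 and 0.17 ± 0.21.

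**Figure D2:**
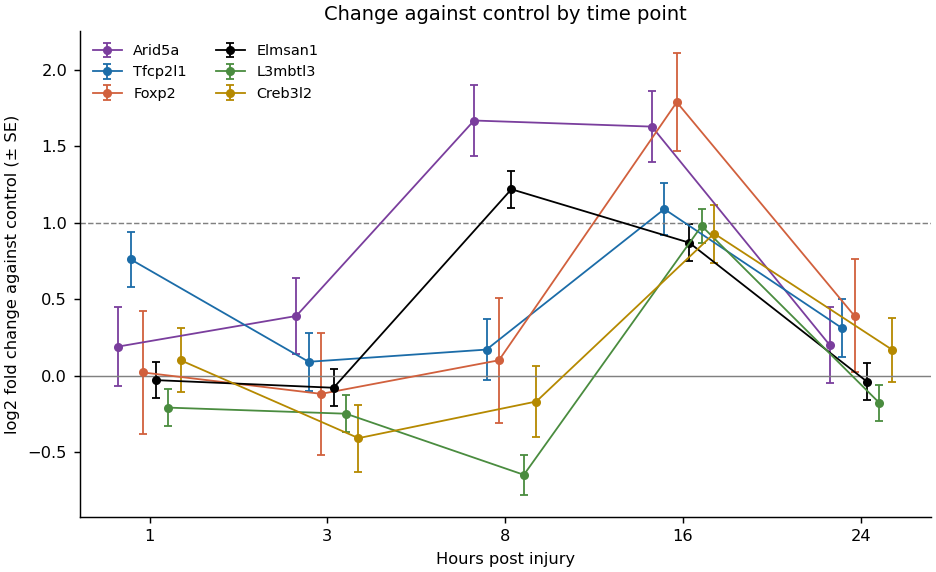
Fitted log2 fold change against control (vertical axis, bars ± SE, 18 libraries in the fit) at each time after injury (horizontal axis), with a line for each factor and a dashed line at the 2-fold limit. Arid5a and Elmsan1 stood over 2-fold at 8 HPI, Arid5a, Tfcp2l1 and Foxp2 did at 16 HPI, and at 24 HPI the 6 values lay between -0.18 and 0.39.

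Counted with the limits of the study (adjusted p under 0.05 and over 2-fold), 2 of the 6 members were higher than control at 8 HPI and 3 of 6 at 16 HPI, and none at 1, 3 or 24 HPI. Among all tested genes, 0.254% were higher by this rule at 8 HPI and 1.18% at 16 HPI, beside 0.029%, 0.0218% and 0.639% at 1, 3 and 24 HPI. Those that differed in either direction made up 0.029%, 0.029%, 0.537%, 1.49% and 0.821% of all genes at the 5 time points in order of time. These counts come from the contrast by which the members were listed. Over the 6 the log2 fold change had a median of 0.14 at 8 HPI, 1.04 at 16 HPI and 0.18 at 24 HPI. Ordered by log2 fold change at 16 HPI among the 13771 genes, Foxp2 ranked 36, Arid5a 45, Tfcp2l1 135, L3mbtl3 174, Creb3l2 195 and Elmsan1 225. At 8 HPI Arid5a ranked 12 and Elmsan1 27, while L3mbtl3 ranked 13525.

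The other 23 factors on the study's list, of which 20 passed the filter, were highest at 16 HPI in 12 cases, at 8 HPI in 6, and at 1 and 24 HPI in 1 each. Their median log2 fold change at 24 HPI was 0.48, with a range from -0.39 to 2.46, and that of the 6 members was 0.18. The gap was not tested. Atf3, a bZIP factor that marks injured sensory neurons, stood at 13.5 ± 5.53 CPM in control, 64.5 ± 1.39 at 8 HPI and 118 ± 3.46 at 16 HPI (SD, n = 3). Of the other injury genes checked, Fos, Jun and Gadd45a also stood above control at 16 HPI. Their means there were 3.59, 68.4 and 46.1 CPM, against 1.11, 39.3 and 27.4 in control. Gal lay below its control mean at 16 HPI, 0.557 ± 0.197 against 0.94 ± 0.509 CPM, with overlapping ranges. Sprr1a held 0 CPM in control and 0.0615 ± 0.0573 at 16 HPI. These levels are a description.

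Whether the members differed among injured time points that their listing had not used was tested in 33 comparisons. Elmsan1 was higher at 16 HPI than at 1 HPI by 0.90 ± 0.12 on the log2 scale (edgeR quasi-likelihood test, two-sided, adjusted p = 2.02e-05) and than at 3 HPI by 0.95 ± 0.12 (adjusted p = 7.03e-06), in 3 of 3 replicates each. It then fell by 0.92 on the log2 scale from 16 to 24 HPI (SE 0.12, adjusted p = 3.78e-05), also in 3 of 3 replicates. Without the term for replicate number the same 3 differences had adjusted p of 0.0886, 0.0551 and 0.135. L3mbtl3 was higher at 24 than at 8 HPI by 0.47 ± 0.13 (adjusted p = 0.0244), with replicate log2 ratios of 0.66, -0.01 and 0.57, so that replicate 2 did not show it. The adjusted p was 0.218 without the term for replicate number, 0.0833 by DESeq2 and up to 0.155 without 1 library, and was past 0.05 without either 8HPI replicate 1, 8HPI replicate 3, 24HPI replicate 1 or 24HPI replicate 3.

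Neither side of these 33 comparisons was a time at which the study lists the member as over 2-fold above control. Large differences were thus in part selected against. None of the 33 differences passed the adjusted threshold with over 2-fold, and the 4 above were the ones that passed it at any size. By DESeq2 3 passed, and 11 of the 33 had an unadjusted p under 0.05 in edgeR, beside 7.52% to 32.9% of all genes over the 9 contrasts these came from. Of all genes, 8.32% were higher at 16 than at 1 HPI by adjusted p, 10.6% were higher at 16 than at 3 HPI, 6.22% were lower at 24 than at 16 HPI, and 4.71% were higher at 24 than at 8 HPI. In either direction, the share of all genes that passed was 15.8%, 21.1%, 9.82% and 12.1% in these comparisons, with 1.18%, 1.34%, 0.508% and 0.871% over 2-fold. For the comparisons in which no member passed, it was 0.0% between 3 and 1 HPI, 2.94% between 8 and 1 HPI, 7.25% between 24 and 1 HPI, 2.3% between 8 and 3 HPI and 10.8% between 24 and 3 HPI. Over 2-fold it was 0.0%, 0.283%, 0.654%, 0.189% and 0.704% in that order. Tfcp2l1 differed between 3 and 1 HPI by -0.67 ± 0.17 (interval of 2 SE -1.02 to -0.33) in 3 of 3 replicates, with an unadjusted p = 0.00086 and an adjusted p = 0.406. No gene of the 13771 passed the adjusted threshold between 3 and 1 HPI in edgeR, 1035 had an unadjusted p under 0.05, and DESeq2 called 0 genes there. At 8 and 24 HPI Tfcp2l1 differed from 1 HPI by -0.59 ± 0.18 (adjusted p = 0.0873) and -0.46 ± 0.17 (adjusted p = 0.117).

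A further 2 differences came near the threshold. L3mbtl3 differed between 8 and 1 HPI by -0.44 ± 0.14 (interval of 2 SE -0.71 to -0.16, adjusted p = 0.0945) and Creb3l2 between 24 and 3 HPI by 0.58 ± 0.22 (interval 0.15 to 1.01, adjusted p = 0.0935), each with 1 sign in 3 of 3 replicates. Between 24 and 1 HPI the intervals were -0.48 to 0.50 for Arid5a, -0.26 to 0.23 for Elmsan1, -0.21 to 0.28 for L3mbtl3, -0.34 to 0.48 for Creb3l2 and -0.36 to 1.12 for Foxp2. For Foxp2 between 24 and 3 HPI it ran from -0.23 to 1.25, so that a difference of 2-fold lay inside the interval at this depth.

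The fall from 16 to 24 HPI of the 5 members listed at 16 HPI is a description. It was -1.43 ± 0.22 for Arid5a, -1.40 ± 0.30 for Foxp2, -1.16 ± 0.11 for L3mbtl3, -0.78 ± 0.17 for Tfcp2l1 and -0.77 ± 0.19 for Creb3l2, with the same sign in each of 3 replicates. From 8 to 16 HPI the difference was 1.63 ± 0.12 for L3mbtl3, 1.69 ± 0.33 for Foxp2, 1.10 ± 0.21 for Creb3l2 and 0.91 ± 0.18 for Tfcp2l1, again in each of 3 replicates, and -0.05 ± 0.20 for Arid5a and -0.34 ± 0.11 for Elmsan1. The library 16HPI replicate 1 stood apart in its share of counts on residual rRNA genes, 4.62% against 0.691% to 1.71% in the others. Without it the log2 fold change at 16 HPI was 1.46 for Arid5a, 0.97 for Tfcp2l1, 1.75 for Foxp2, 0.93 for L3mbtl3 and 0.81 for Creb3l2.

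Courses over the 18 libraries fell into an early pair and 4 later genes. After removal of the replicate effect, Arid5a and Elmsan1 had a Pearson r of 0.95 in log2 CPM. Among Tfcp2l1, Foxp2, L3mbtl3 and Creb3l2, r lay between 0.66 (Tfcp2l1 and L3mbtl3) and 0.81 (Foxp2 and Creb3l2). Between the pair and these 4 genes it lay between 0.16 (Elmsan1 and L3mbtl3) and 0.55 (Arid5a and Foxp2). These values are descriptive, since the libraries share 6 time points and the members were chosen for their levels at 2 of them.

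**Figure D3:**
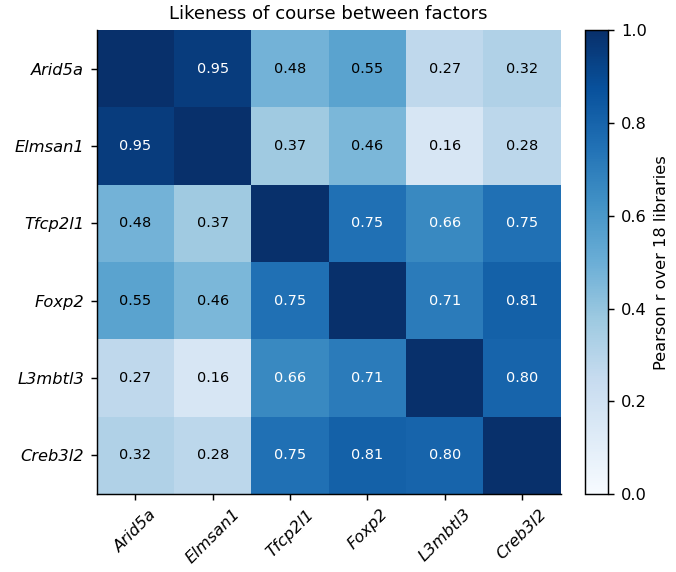
Pearson r (colour and number, scale from 0 to 1) between the log2 CPM of each pair of factors over 18 libraries after removal of the replicate effect. Arid5a and Elmsan1 form 1 block with an r of 0.95, and the other 4 factors a second block with values from 0.66 to 0.81.

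The genes of most similar course, with r over the same 18 libraries and replicate effect removed, were taken as the nearest 3 of the tested genes outside the members. For Arid5a they were Hspa5, the main chaperone of the endoplasmic reticulum (r = 0.974), Ddit3, the stress-induced bZIP factor CHOP (0.974), and the ubiquitin ligase Trim17 (0.945). Ddit3 had log2 fold changes of 1.06, 1.11 and 0.08 at 8, 16 and 24 HPI, and Hspa5 of 0.46, 0.52 and 0.07, and Ddit3 is itself on the study's list. For Elmsan1 they were Stk40 (0.975), the zinc finger gene Zbtb21 (0.974) and the bZIP repressor Nfil3 (0.973), the last with 0.98, 0.65 and -0.18.

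For L3mbtl3 they were the protease Furin (0.929), the cyclic AMP phosphodiesterase Pde7a (0.918) and Rest, the repressor of neuronal genes (0.918), which is itself on the study's list. Rest had log2 fold changes of -0.37 ± 0.37 at 8 HPI, within its error, and 2.06 ± 0.26 at 16 HPI. For Creb3l2 they were Rbpj (0.919), the BMP effector Smad5 (0.909) and Amer3 (0.898). For Tfcp2l1 they were the chromatin protein gene Hmgb2 (0.911), the GTPase activator Arhgap11a (0.910) and the desmosome gene Pkp2 (0.890), and for Foxp2 the lysosomal enzyme Gla (0.916), the Mediator kinase Cdk19 (0.912) and again Pkp2 (0.912).

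Relatives in the same protein families were not chosen by their level over control, while the members were, so the sizes of the 2 sets are a description and support nothing. Of 29 related genes 21 passed the filter, and none was called against control at any time point by adjusted p and 2-fold in edgeR. At an unadjusted p under 0.05 there were 11 of the 21 relatives at 16 HPI, 9 at 8 HPI and 7 at 24 HPI, beside 33.6%, 22.0% and 28.6% of all genes. By adjusted p alone, 5 relatives were higher and 3 lower at 16 HPI, or 38.1% of the 21, beside 22.2% of all genes. At 8 HPI 3 were lower and none higher, 14.3% beside 7.68% of all genes. Their median log2 fold change at 16 HPI was 0.04, with a range from -0.56 to 0.48.

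In control, the most abundant relative of each family stood above the member per kilobase. Creb3, an endoplasmic reticulum bZIP factor like Creb3l2, held 25.9 ± 1.90 RPKM in control and 31.1 ± 2.81 at 16 HPI, against 0.228 and 0.445 for Creb3l2. Creb3 was higher at 16 HPI by 0.27 ± 0.05 (adjusted p = 0.000246). Ubp1, the CP2 family factor, held 9.26 ± 1.41 RPKM in control against 0.462 for Tfcp2l1, and was higher at 16 HPI by 0.21 ± 0.07 (adjusted p = 0.0287). Mier2, which like Elmsan1 has ELM2 and SANT domains, held 6.37 ± 0.202 RPKM in control and differed by -0.05 ± 0.07 at 16 HPI (adjusted p = 0.677). Elmsan1 itself stood at 3.38 RPKM in control, at 7.67 ± 0.70 at 8 HPI and at 6.10 ± 0.861 at 16 HPI, where Mier2 held 6.15 ± 0.303.

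L3mbtl2 held 5.31 ± 0.312 RPKM at 16 HPI against 1.22 for L3mbtl3, and differed from control by 0.09 ± 0.07 (adjusted p = 0.388). Foxp4 held 2.91 ± 0.542 RPKM against 0.0462 for Foxp2 and differed by -0.05 ± 0.09 (adjusted p = 0.775). Arid3a held 1.92 ± 0.187 RPKM in control and 2.03 ± 0.184 at 16 HPI, against 0.461 and 1.38 for Arid5a, and at 8 HPI it fell by 0.37 on the log2 scale, SE 0.11 (adjusted p = 0.0494). Among the relatives chosen after their values were seen, Foxp1 was higher at 16 HPI by 0.45 ± 0.08 (adjusted p = 0.000482), Creb3l1 was lower with a log2 fold change of -0.39 ± 0.08 (adjusted p = 0.000915), and Trerf1, a relative of Elmsan1, was lower at 8 HPI with -0.71 ± 0.10 (adjusted p = 0.00024). In order of RPKM within its family, each member other than Creb3l2 stood 1 place higher at 16 HPI than in control. These places depend on the length used, and with the longest transcript the control places of Arid5a, Tfcp2l1, Elmsan1 and L3mbtl3 were different.

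**Figure D4:**
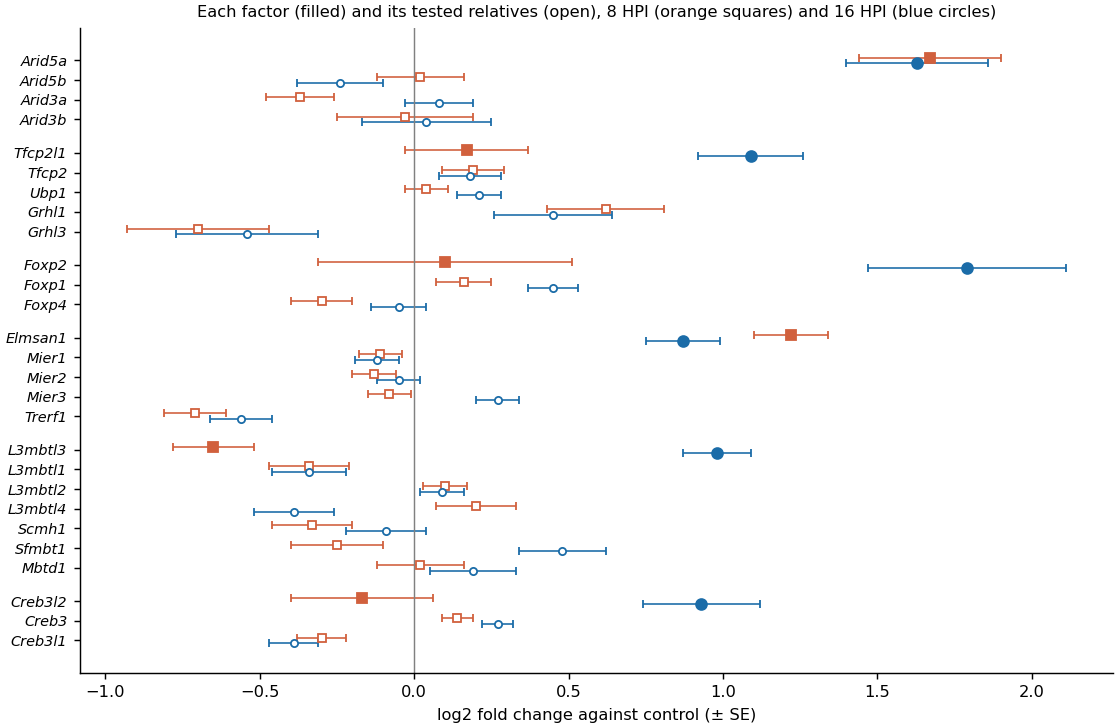
Log2 fold change against control (horizontal axis, bars ± SE) of each factor (filled) and of its relatives that passed the filter (open), at 8 HPI (orange squares) and 16 HPI (blue circles). The relatives lay between -0.71 and 0.62, and the members, which were chosen by these values at their listed times, between 0.93 and 1.79 there.

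Of 77 genes in the pathways around the members 54 passed the filter. At 16 HPI 14 were higher and 7 lower by adjusted p, 38.9% beside 22.2% of all genes, with a median log2 fold change of -0.00. Over 2-fold, Hes1 was called at 8 HPI, Il6ra, Socs3 and Plaur at 16 HPI and Plaur at 24 HPI, all of them higher. The study lists Hes1 at 8 HPI, so that its call is a description. For Arid5a, 9 genes of interleukin-6 signalling and mRNA stability were listed and 4 passed the filter. Il6 itself held at most 2 counts in any library, below the 3 counts taken as the floor, and Zc3h12a, the nuclease that Arid5a counteracts on that mRNA, did not pass the filter.

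Il6ra, the receptor of interleukin-6, stood at 0.517 ± 0.188 CPM in control and 1.81 ± 0.346 at 16 HPI, a log2 fold change of 1.85 ± 0.29, and its highest count in any library was 40. It passed the filter only through the 3 libraries of 16 HPI and dropped out when any of them was left out, so a higher level there was fixed by the filter and its call supports nothing. Socs3, a feedback inhibitor of that pathway, rose by 1.41 ± 0.43 (adjusted p = 0.0221), from 0.705 ± 0.351 to 1.94 ± 1.67 CPM. This call did not hold without control replicate 1 (adjusted p = 0.164), control replicate 3 (0.0503) or 16HPI replicate 1 (0.203), nor without the term for replicate number (0.428). Il6st, the shared signalling receptor chain, fell by 0.31 on the log2 scale at 16 HPI (SE 0.05, adjusted p = 0.000142), and Stat3 rose by 0.15 (SE 0.05, adjusted p = 0.0479).

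For Foxp2, 3 of 6 described targets passed the filter. Plaur, the urokinase receptor gene, rose by 1.69 ± 0.40 at 16 HPI (adjusted p = 0.00368) and by 1.68 ± 0.39 at 24 HPI (adjusted p = 0.00536), from 0.361 ± 0.355 CPM in control to 1.18 ± 0.492 and 1.19 ± 0.573. Without the term for replicate number the adjusted p was 0.0912 and 0.159. Without control replicate 1 both log2 fold changes were 2.70, and without control replicate 3 they were 1.26 and 1.25. Plaur passed the filter only through libraries of 16 and 24 HPI, and had no value without 16HPI replicate 1, 16HPI replicate 3 or 24HPI replicate 1, so that its call rests on a filter it met where it was high. Cntnap2, a neurexin family gene, fell by 0.31 on the log2 scale at 16 HPI (SE 0.06, adjusted p = 0.000275) and by 0.30 at 24 HPI (adjusted p = 0.000915). Vldlr, the third tested target, differed by -0.14 ± 0.07 at 16 HPI (adjusted p = 0.192) and -0.34 ± 0.07 at 24 HPI (adjusted p = 0.00292). Cntnap2 and Vldlr thus lay below control at both times, and Plaur lay above it under a filter that favoured a rise. Nothing is drawn from the directions of the 3 targets, and a link to Foxp2 was not tested. Foxp2 is also among the genes that the study gives for the TrpM8 subtype of sensory neuron. Of the 48 other genes of that subtype 40 passed the filter. At 16 HPI 6 were higher and 11 lower by adjusted p, 42.5% of them beside 22.2% of all genes. Trpm8, the cold channel that names the subtype, fell by 0.78 on the log2 scale (SE 0.11, adjusted p = 2.26e-05).

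Wls, which carries Wnt proteins to the cell surface, was called at 24 HPI with 1.11 ± 0.20 (adjusted p = 0.000664). Without the term for replicate number its adjusted p was 0.410, and it stood under 2-fold without control replicate 1 (0.99) or 24HPI replicate 2 (0.83). Cultures hold many neurons, so fewer cells of a subtype and less RNA per cell cannot be told apart.

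For L3mbtl3, 15 of 18 genes of the Notch pathway passed the filter. At 16 HPI 4 were higher (Dll1, Hey2, Hes1 and Rbpj) and 1 lower (Maml2) by adjusted p, beside 22.2% of all genes. Hes1, a target of Notch and a repressor, stood higher by 1.50 ± 0.27 at 8 HPI, with 3.10 ± 2.14 CPM in control and 8.31 ± 3.14 there. The study lists Hes1 at 8 HPI, so this value is a description. Hey1 and Hey2 of the same list differed by -0.12 ± 0.10 and -0.37 ± 0.31 at 8 HPI (adjusted p = 0.537 and 0.531). The call of Hes1 also did not hold without the term for replicate number. Rbpj rose by 0.45 ± 0.09 at 16 HPI (adjusted p = 0.000883), and its partner Kdm1a differed by 0.05 ± 0.05 (adjusted p = 0.509).

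For Elmsan1, the 3 other subunits of the mitotic deacetylase complex passed the filter. Dnttip1 was higher at 16 HPI by 0.40 ± 0.14 (adjusted p = 0.0453) and differed by 0.14 ± 0.15 at 8 HPI (adjusted p = 0.626). At 8 HPI, where Elmsan1 was highest, Hdac1 differed by -0.11 ± 0.13 (adjusted p = 0.660) and Hdac2 by 0.09 ± 0.05 (adjusted p = 0.307).

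For Creb3l2, 14 of 15 genes of its cleavage and of COPII transport passed the filter, and none was called at 16 HPI by adjusted p and 2-fold. By adjusted p alone 1 was higher (Sec24d, 0.21 ± 0.07, adjusted p = 0.0433) and 1 lower (Sec24b, -0.22 ± 0.07, adjusted p = 0.0291). Sec23a, its described target, had -0.01 ± 0.05 (adjusted p = 0.878). Of 13 genes of the unfolded protein response, all tested, 4 rose at 8 HPI by adjusted p (Dnajb9, Xbp1, Hspa5 and Herpud1) and none fell, while 3 rose and 3 fell at 16 HPI, beside 7.68% and 22.2% of all genes that passed in either direction. Herpud1, of protein degradation at the endoplasmic reticulum, rose by 0.60 ± 0.07 at 8 HPI (adjusted p = 1.1e-05) and differed by 0.01 ± 0.07 at 16 HPI (adjusted p = 0.962). Dnajb9, a co-chaperone, rose by 0.71 ± 0.08 at 16 HPI (adjusted p = 1.65e-06). None of the 13 passed 2-fold at any time point.

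For Tfcp2l1, 2 of 13 factors of the naive pluripotency network passed the filter. Klf5 rose at 16 HPI by 0.99 ± 0.27 (adjusted p = 0.0104), and Klf4 differed by 0.45 ± 0.18 (adjusted p = 0.0879). Pou5f1 and Nr0b1 held at most 1 count in any library.

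Markers of sensory neurons and of neural progenitors were high in the libraries, and those of the other cell types below were low but not at 0. The neural progenitor markers (3) summed to 4410 to 4920 CPM in control, 4330 to 5170 at 8 HPI, 3790 to 4710 at 16 HPI and 4050 to 4670 at 24 HPI. The summed level of 6 sensory neuron markers was 4630 to 5530 CPM in control, 4580 to 5060 at 8 HPI, 3800 to 4500 at 16 HPI and 4000 to 4710 at 24 HPI. Schwann cell markers (3) summed to 0.204 to 0.531 CPM in control and 0.284 to 1.14 at 16 HPI, and satellite glia markers (3) to 0.665 to 2.75 and 0.964 to 1.78. Endothelial markers (3) summed to 0.815 to 1.16 CPM in control and 0.567 to 1.14 at 16 HPI. Myeloid markers (3) moved from 3.18 to 4.74 CPM in control to 4.71 to 5.56 at 16 HPI and 4.53 to 6.60 at 24 HPI, fibroblast markers (4) from 1.70 to 5.26 CPM to 3.35 to 8.12 and 3.09 to 9.57, and neural crest markers (3) from 0.591 to 2.08 CPM to 1.25 to 4.63 and 1.97 to 5.95.

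Within those lists Cd68 was higher at 16 HPI by 0.97 ± 0.25 (adjusted p = 0.00698) and the fibroblast gene Dcn by 2.07 ± 0.28 (adjusted p = 1.77e-05), and at 24 HPI Nes was higher by 1.86 ± 0.45 (adjusted p = 0.00714), genes chosen after their values were seen. The other tested myeloid and fibroblast genes did not pass at 16 HPI in the same edgeR test. Aif1 differed by 0.25 ± 0.21 (adjusted p = 0.43), Col1a1 by 0.84 ± 0.59 (0.342) and Col1a2 by 0.10 ± 0.71 (0.945). Foxd3 and Sox2 of the neural crest list did not pass the filter. Dcn stayed high at 24 HPI with 2.22 ± 0.27. Its mean was 0.571 CPM in control, at most 0.76 at 1, 3 and 8 HPI, and 2.47 and 2.79 at 16 and 24 HPI. Dcn thus passed the filter through libraries of 16 and 24 HPI, so that its calls rest on a filter it met where it was high. At 8 HPI no tested gene of the satellite glia (1 tested), myeloid (2), fibroblast (3) and neural crest (1) lists passed the adjusted threshold. No Schwann cell or endothelial gene passed the filter on low counts, so for these 2 lists no gene could pass. The part of these cells in the levels of the members was not tested.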

How the data were processed

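The authors deposited raw counts per gene, 1 table per library, without normalization. By the paper's methods reads were trimmed with cutadapt, aligned to mm10 with STAR under GENCODE vM20 and counted with featureCounts, while the submitters' processing notes name HTSeq, whose closing entries the deposited tables carry. These entries held 25.2% to 33.2% of each table and stayed out of library sizes. The labels name Ribo-Zero Gold rRNA depletion and SMARTer cDNA synthesis. Whether counting used strand is not given in the sources used here.

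Names, positions and exon lengths came from GENCODE vM21 on GRCm38, which matched 47224 of 47643 identifiers, 39106 with the same version. edgeR 4.0.16 under R 4.3.3 gave the tests. A gene entered the model when at least 3 libraries held over 1 CPM of it, TMM factors scaled the libraries, and 1 quasi-likelihood model with time point and replicate number as factors was fitted to the 18 libraries. Tests were two-sided, with Benjamini-Hochberg adjustment over 13771 genes. A gene was called at an adjusted p under 0.05 and over 2-fold. DESeq2 1.42.0, other size factors, other filters, no replicate term and leaving out each library were alternatives. Batch was removed with limma 3.58.1, on log2 CPM with a prior count of 2, for correlations only.

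Since the study corrected for batch, replicate numbers served as batches, although neither the titles nor the paper state that equal numbers share one. Deviations from group means correlated within a number (mean r 0.619, 0.484 to 0.765, 45 pairs). Across numbers the mean r was -0.308 (-0.577 to -0.0423, 90 pairs). Centring each group on its own mean pushes the values across numbers below 0, so they are no separate evidence for batches. The smallest library held 9478891 counts and thus limits scarce genes most.

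The members and lists were chosen with earlier results of these data known, and direction of the members against control is not support. Genes named are the members, list genes called at any time point (1 of them is not reported here), the relative of highest mean RPKM in each family and the 3 genes of most similar course per member. Other genes named, among them those that passed by adjusted p alone, known partners and markers, were chosen after their values were seen. RefSeq promoters were searched for exact letters on both strands.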

Additional observations from a re-analysis of the deposited data

Results flagged for a closer look

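Differences between injured time points passed the adjusted threshold of edgeR's quasi-likelihood test in 4 cases, none over 2-fold. The choice of time points had in part selected against differences of that size. Elmsan1 was higher at 16 HPI than at 1 HPI by 0.90 and than at 3 HPI by 0.95 on the log2 scale, and its difference between 24 and 16 HPI was -0.92, each with the same sign in 3 of 3 replicates. L3mbtl3 was higher at 24 than at 8 HPI by 0.47, with the same sign in 2 of 3 replicates. A difference between groups brought each of them here, and what lies behind them was not tested.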

How the results depend on the processing

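Scaling, the filter on low counts, the tool and leaving out a library kept the direction of every log2 fold change of a member at its listed time. Over the 18 fits that each left out 1 library, these ranged from 1.41 to 1.95 (Arid5a at 8 HPI), 1.38 to 1.88 (Arid5a at 16 HPI), 0.93 to 1.29 (Tfcp2l1), 1.49 to 2.72 (Foxp2), 1.08 to 1.37 (Elmsan1), 0.93 to 1.06 (L3mbtl3) and 0.81 to 1.15 (Creb3l2). Foxp2 had no value under the filter of over 1 CPM in all libraries, and a low count limits it at every time point.

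The term for replicate number is a block in the model. The titles give only replicate numbers, and that equal numbers share a batch is an inference from these data. With no replicate block, Elmsan1 had 0.88 for 16 against 1 HPI (adjusted p = 0.0886), 0.95 for 16 against 3 HPI (0.0551) and -0.92 for 24 against 16 HPI (0.135), and L3mbtl3 0.44 for 24 against 8 HPI (0.218). Over all alternatives other than left-out libraries, the adjusted p of these 4 ranged from 9.99e-29 to 0.0886, 4.81e-32 to 0.0551, 1.73e-29 to 0.135 and 0.0134 to 0.218. The calls of Socs3, Plaur, Hes1 and Wls also did not hold without the block. Il6ra and Plaur had values in 15 of the 18 fits with 1 library left out, and did not pass the filter in the other 3.

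By DESeq2, L3mbtl3 had 0.46 for 24 against 8 HPI (adjusted p = 0.0833) and Arid5a turned to -0.04 for 24 against 1 HPI. With upper-quartile factors Elmsan1 stood at 0.00 for 24 against 1 HPI. With all genes of at least 1 count in the fit, Tfcp2l1 passed the threshold with -0.67 for 3 against 1 HPI (adjusted p = 0.000559), -0.60 for 8 against 1 HPI (0.00227) and -0.45 for 24 against 1 HPI (0.0198). The causes of these shifts were not tested.

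With 1 library left out, Tfcp2l1 ranged from -0.78 to -0.34 (8 against 1 HPI), -0.64 to -0.21 (24 against 1 HPI), -0.02 to 0.31 (8 against 3 HPI) and -0.09 to 0.26 (24 against 8 HPI). Its first 2 differences passed without 1HPI replicate 1, with adjusted p of 0.0291 and 0.0336. L3mbtl3 ranged from -0.59 to -0.33 (8 against 1 HPI), -0.55 to -0.30 (8 against 3 HPI) and 0.38 to 0.62 (24 against 8 HPI), and its first 2 differences passed without 8HPI replicate 2 (adjusted p = 0.0224 and 0.0352). Foxp2 ranged from -0.41 to 0.23 (3 against 1 HPI), -0.13 to 0.32 (8 against 1 HPI) and -0.17 to 0.50 (8 against 3 HPI). Arid5a ranged from -0.07 to 0.32 (3 against 1 HPI), -0.22 to 0.16 (24 against 1 HPI) and -0.41 to 0.08 (24 against 3 HPI). Elmsan1 ranged from -0.10 to 0.07 (3 against 1 HPI), -0.16 to 0.10 (24 against 1 HPI) and -0.11 to 0.10 (24 against 3 HPI), and Creb3l2 from -0.05 to 0.21 (24 against 1 HPI). Of all settings tried, 994 values of the members were counted as unchanged, 23 changed sign, 7 came to pass the adjusted threshold and 9 no longer did. At listed times, unchanged meant a shift smaller than the SD of the replicate ratios, with no check of a threshold. Some of those values crossed 2-fold, such as Tfcp2l1 (down to 0.93) and Creb3l2 (up to 1.15). Elsewhere it meant the same sign and side of the adjusted threshold, or no adjusted p.

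Counts of called genes over the whole table moved more. Against control at 8, 16 and 24 HPI they were 74, 205 and 113, and with no replicate block 16, 108 and 23, with the filter of over 1 CPM in all libraries 26, 68 and 24, with at least 1 count 145, 335 and 190, and by DESeq2 47, 184 and 72. With at least 10 counts 311 were called at 16 HPI. Between injured time points the counts were 162 (16 against 1 HPI), 26 (8 against 3 HPI), 185 (16 against 3 HPI), 97 (24 against 3 HPI), 120 (24 against 8 HPI), 70 (24 against 16 HPI) and 0 (3 against 1 HPI). In that order they were 66, 11, 93, 26, 46, 18 and 0 with no replicate block, 56, 17, 65, 24, 44, 21 and 0 over 1 CPM in all libraries, 249, 53, 287, 176, 214, 108 and 9 with at least 1 count, and 143, 17, 165, 80, 106, 43 and 0 by DESeq2. Without control replicate 3 or 8HPI replicate 3, 43 and 40 genes were called at 8 HPI against control, and without 16HPI replicate 1 or 24HPI replicate 3, 38 and 46 at 24 against 16 HPI. The motif matches fell from 5 to 3 of the 7 promoters within the middle 150 bases.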
